A study of Mus musculus with 12 samples.

Results

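MIN6 cells that had been kept without amino acids for 16 h were compared with untreated MIN6 cells by sequencing of total RNA. MIN6 is a mouse insulinoma line that makes and secretes insulin and is widely used in place of pancreatic β-cells. The comparison took 6 of the 12 libraries of the series, chosen by their titles: 3 libraries of starved cells (treatment label "no AA 16h") and 3 of control cells (label "ctrl"). Of 49315 genes in the count files, 16844 passed a filter on low counts, and every one of these was tested. All 6 libraries were of the wild-type line (genotype label WT), with the cell type given as pancreatic beta cell, and the growth conditions named for all groups were DMEM with 15% FBS and 2 mM glutamine at 37 °C and 5% CO2. The labels do not give the composition of the medium without amino acids, its glucose or its serum, so what else differed between the media besides amino acids cannot be told from them. Nor do they state if replicates were grown as separate cultures, so each p-value reflects variation among the sequenced libraries and this variation could be technical. The other 6 libraries, of cells given amino acids back for 3 h with or without an agent labelled Rap, entered the fit to estimate the spread between replicates.

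Cells sense a lack of amino acids in more than a single way. Uncharged tRNA activates the kinase GCN2, which phosphorylates the initiation factor eIF2α, lowers general protein synthesis and favours translation of ATF4, a transcription factor that raises genes of amino acid synthesis, uptake and tRNA charging. In parallel the kinase complex mTORC1, which the Rag GTPases hold on the lysosome when amino acids are present, is switched off, and this releases autophagy, allows the lysosomal factors TFEB and TFE3 into the nucleus, and lowers the output of the ribosomal, sterol and glycolytic programmes that mTORC1 drives. In β-cells amino acids also act as secretagogues and support insulin synthesis.

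Read depth was 23786428, 19530802 and 23325647 counts in the starved libraries and 25631056, 18846723 and 20342376 in the control libraries. Levels below are CPM, counts scaled to a common library size with TMM factors, in the order replicate 1, 2 and 3. A fold change is starved over control, and a gene is said to have risen, fallen or been called where the adjusted p of the edgeR quasi-likelihood test was under 0.05. The 14 defining β-cell and endocrine markers were all detected and summed to 51490.0, 51400.0 and 53520.0 CPM in starved libraries, against 64200.0, 75760.0 and 60190.0 CPM in control libraries, all on raw totals. A single one of them, Abcc8, a subunit of the β-cell potassium channel, rose, while 9 fell. Ucn3, a marker of mature β-cells, was close to the floor, at 0.504, 0.963 and 0.556 CPM in starved libraries and 1.46, 1.41 and 1.4 CPM in control libraries, and Slc2a2 was low as well, as given with the glucose transporters. In bulk RNA, fewer cells of a type and less RNA per cell cannot be told apart. Transcripts of cell types that a pure MIN6 culture does not hold were also present, and unevenly. The summed markers of fibroblasts, leukocytes, endothelium and lung epithelium stood at 3483, 234 and 1625 CPM in starved replicates 1, 2 and 3, against 3590.4, 4264 and 4108 CPM in control replicates 1, 2 and 3. Thus starved replicate 1 resembled the control libraries in these transcripts, and starved replicate 2 held the least. A fit with the summed level of these markers as a covariate is among the alternatives given at the end. The part of these transcripts in the gene results was not tested. Each gene below was therefore also fitted with starved replicate 1 alone against the control libraries and with starved replicates 2 and 3 alone, and genes called in the same direction in both of these fits are said to hold in both subsets. The first of them has a lone starved library and borrows its spread from the remaining groups. Both fits use the same control libraries, so holding in both subsets does not guard against a deviating control library.

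**Figure D1:**
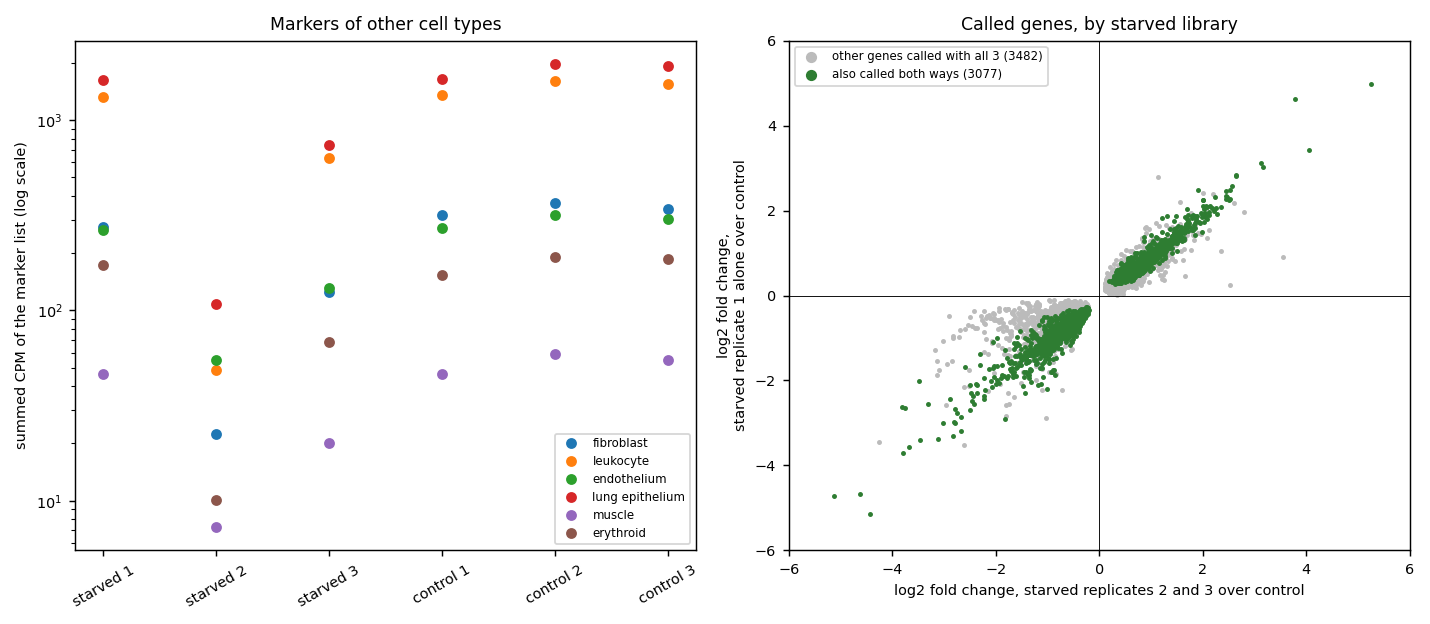
Left, summed CPM on raw totals (log scale) of the markers of 6 other cell types in each starved and control library; starved 1 lies with the control libraries and starved 2 lies lowest. Right, log2 fold change of the 6559 called genes from starved replicate 1 alone (y axis) against starved replicates 2 and 3 (x axis); the 3077 genes called in both subsets are green, and 4 genes lie outside the axes.

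A large part of the transcriptome differed between starved and control libraries, mostly by small amounts. In all, 6559 of 16844 genes were called (38.9%), 4101 higher (24.3%) and 2458 lower (14.6%) in starved cells, and 52.5% of the calls were under 1.5-fold. The counts of each list below are to be read beside these shares of all genes. Calls of at least 2-fold numbered 963 (5.72%), 516 higher (3.06%) and 447 lower (2.65%). In 8445 genes (50.1%) the 3 starved libraries did not overlap the 3 control libraries. The quartiles of the log2 fold change over all genes were -0.45 and 0.37 and the median was 0.01. In 3077 genes (18.3%) the call held in both subsets, 1564 higher (9.29%) and 1513 lower (8.98%), and 365 higher and 248 lower genes of these were at least 2-fold. The balance of directions depends on the scaling. With TMM 62.5% of calls were on the higher side, but this was 44.6% with upper-quartile factors (2961 higher and 3679 lower), which put the median of all genes at -0.13, and 72.4% with limma on TPM values (median 0.13). Without starved replicate 1 it was 49.4%, and 1971 genes instead of 963 were called at 2-fold or more.

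**Figure D2:**
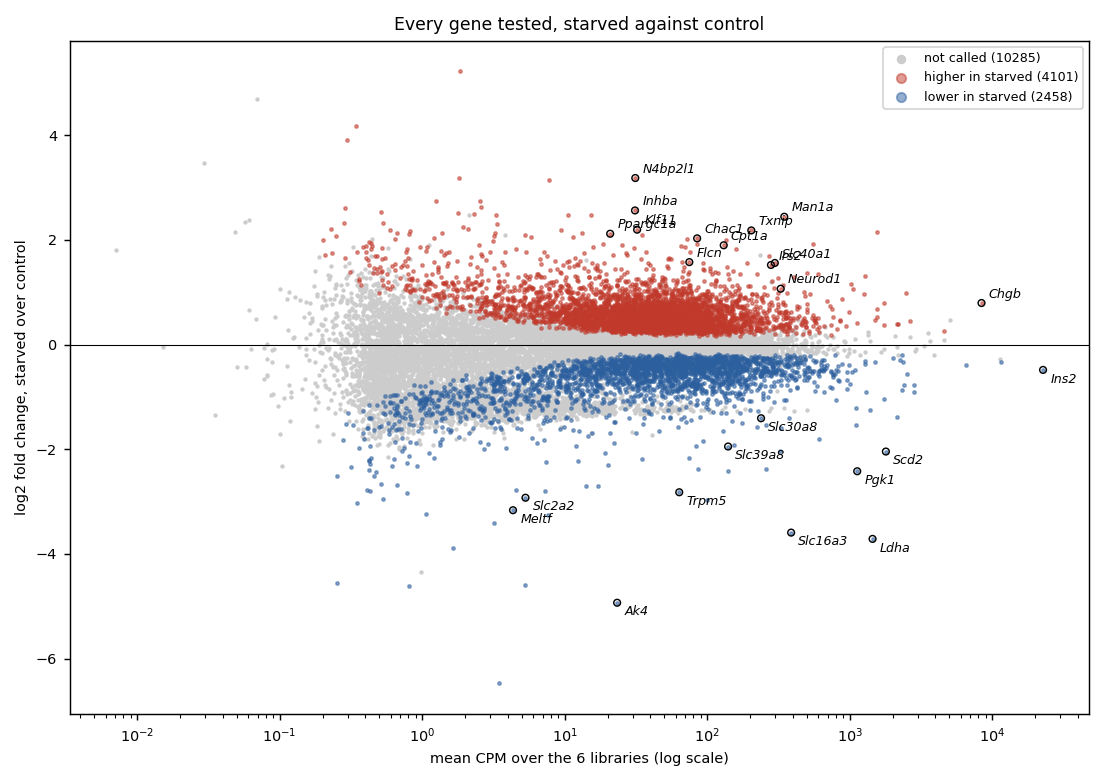
Log2 fold change, starved over control, against mean CPM over the 6 libraries (log scale) for all 16844 genes tested, with 4101 higher in starved cells in red and 2458 lower in blue. Named genes are circled; Ldha and Slc16a3 lie among the largest falls, at -3.71 and -3.59.

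The calls also ran with gene length. Of the genes in the shortest quartile of exon length, 7.62% were higher and 23.8% lower, against 39.8% higher and 6.51% lower in the longest quartile, and the median log2 fold change went up with each quartile, at -0.29, -0.03, 0.09 and 0.24. All 3 starved libraries had this slope, with medians relative to the control mean of -0.22, -0.22 and -0.23 in the shortest quartile and 0.17, 0.32 and 0.2 in the longest. Control libraries differed from each other along the same axis, though by less, at 0.13 in the shortest and -0.13 in the longest quartile for control replicate 2 and at -0.1 and 0.1 for control replicate 3. Exon lengths are given below for some lists only, and the part of length in the results of any list was not tested. Lists given without them include short ones, such as the ATF4 network (median 2124 bases) and the antioxidant genes (2139 bases). They also include lists with many long genes, such as autophagy, with 20 of 49 genes in the longest quartile.

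**Figure D3:**
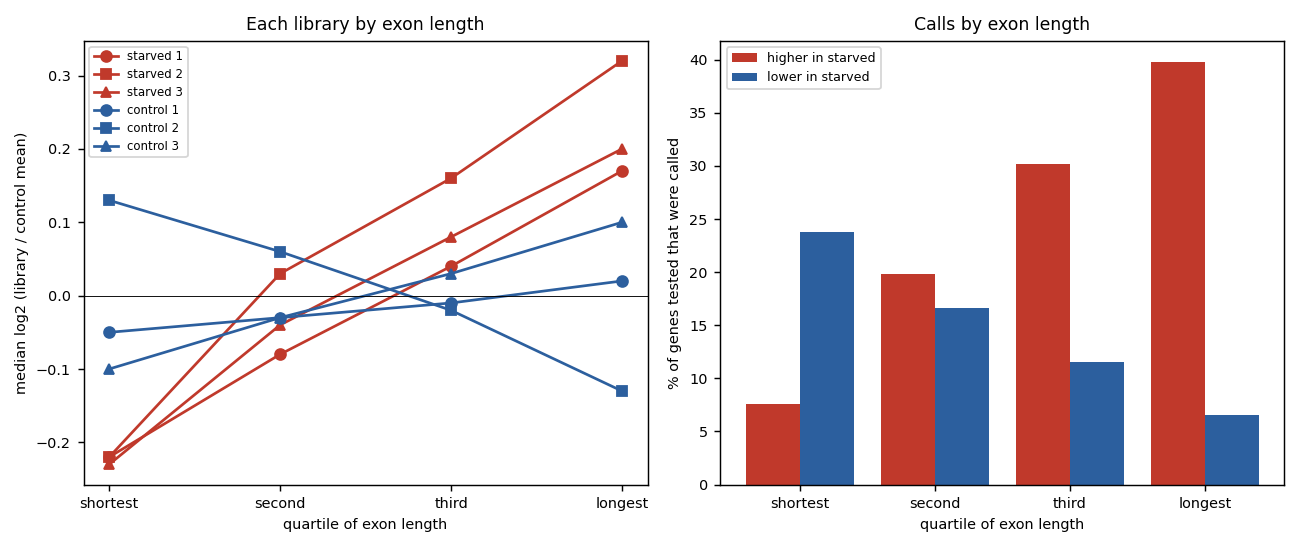
Left, median log2 ratio of each library to the control mean in quartiles of exon length; the starved libraries lie between -0.23 and -0.22 in the shortest quartile and between 0.17 and 0.32 in the longest. Right, percent of tested genes called higher (red) and lower (blue) in starved cells in the same quartiles.

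**Figure D4:**
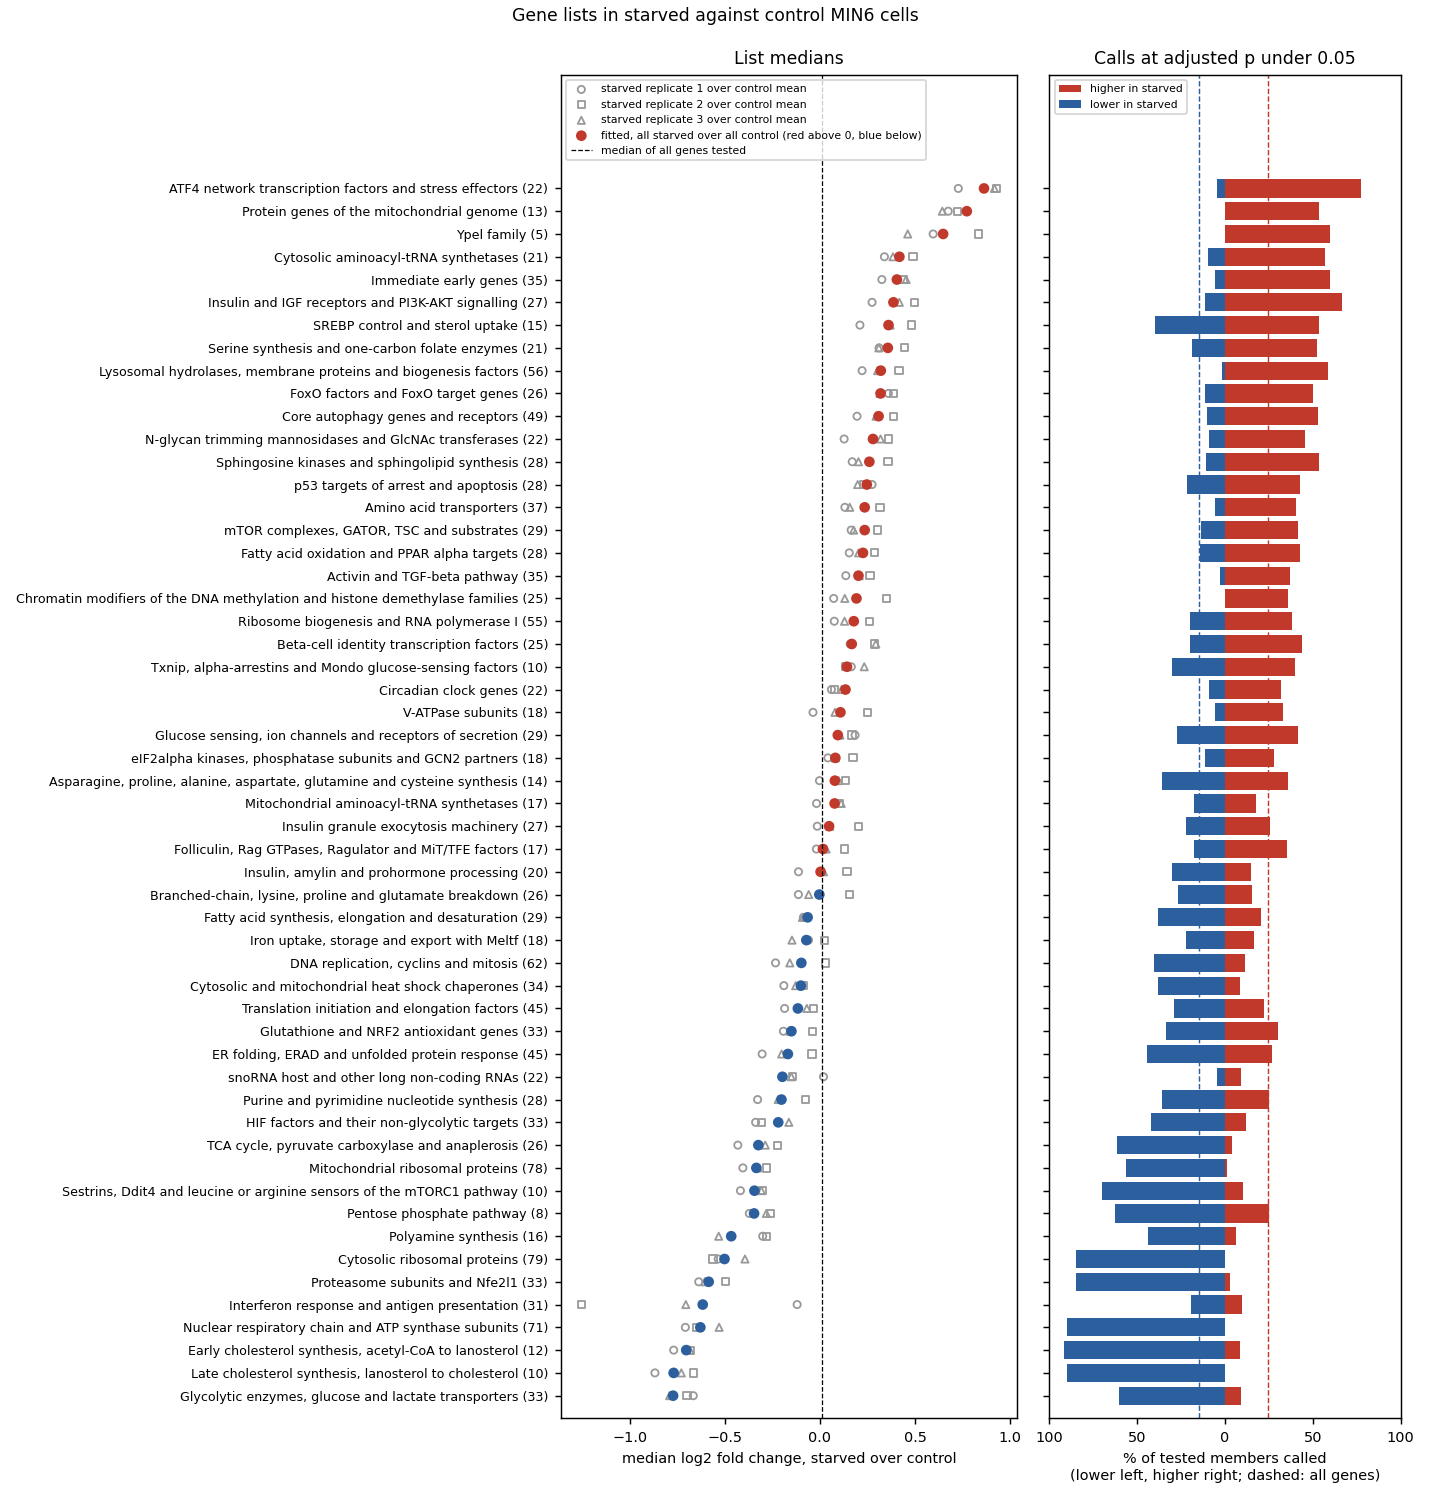
Left, median log2 fold change, starved over control, of each gene list (number of tested members in parentheses), fitted over all libraries (filled) and for each starved library over the control mean (open symbols). Right, percent of members called higher (red, to the right) and lower (blue, to the left), with dashed lines at 24.3% and 14.6%, the shares over all genes tested.

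Most genes of the ATF4 network rose. Of 22 transcription factors and effectors of the ATF4 network, 17 rose and 1 fell, with a median log2 fold change of 0.86, against 0.01 over all genes, and 16 of the rises held in both subsets. Atf4 itself had 385, 472 and 427 CPM in starved libraries, against 251, 276 and 225 CPM in control libraries (log2 fold change 0.77, SE 0.09, adjusted p = 8.5e-05). Every starved library was above every control library. Its relative Atf5, a stress-induced factor of the same family, was the more abundant transcript per length in starved cells, at a mean of 1279 TPM against 717 TPM for Atf4, whereas in control cells the levels were 308 and 385 TPM. Atf5 had 839, 980.3 and 827 CPM in starved libraries, against 225, 263 and 207 CPM in control libraries (log2 fold change 1.93). Trib3, a pseudokinase that ATF4 induces and that binds AKT, had 48.9, 66.5 and 54.7 CPM in starved libraries, against 11.9, 16.9 and 10.8 CPM in control libraries (2.1 on the log2 scale, adjusted p = 3.5e-06). The groups were far apart in each of these genes, although Nup62 overlaps Atf5 in part on the other strand. Ddit3, which encodes the stress factor CHOP, rose by 1.23 on the log2 scale, but it shares exon sequence with Mars, a tRNA synthetase gene on the other strand with more counts, and without a stated strand setting its level is uncertain. Chac1, which breaks down glutathione, had 119.8, 144 and 146 CPM in starved libraries, against 34.2, 31.2 and 35.0 CPM in control libraries (2.03). The single member that fell was Ddit4, taken up with the mTORC1 regulators below.

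The promoter of Chac1 is shown because it was, among this network and the amino acid synthesis genes, the called gene with the smallest adjusted p that held the C/EBP-ATF composite element, searched as TGATGNAA on both strands. The window is 250 bases before to 50 bases after the RefSeq transcription start (GRCm38.p6, chr2:119350992-119351291, plus strand, 300 bases), and the capitals mark the match, which lies on the minus strand and begins 192 bases before the start.
Chac1: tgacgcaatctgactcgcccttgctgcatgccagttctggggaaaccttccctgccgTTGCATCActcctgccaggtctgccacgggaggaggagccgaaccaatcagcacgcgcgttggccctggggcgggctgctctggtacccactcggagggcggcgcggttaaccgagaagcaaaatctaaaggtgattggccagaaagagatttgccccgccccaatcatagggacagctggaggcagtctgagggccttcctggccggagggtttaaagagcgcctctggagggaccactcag
Among the 27 RefSeq promoters matched to the network's list, 8 held the element (29.6%), against 3.97% of all 32851 promoters in the table, and so did 5 of 14 promoters of cytosolic tRNA synthetase genes (35.7%). None of 19 promoters of serine and folate enzyme genes held it in this window. A match is a stretch of letters and no measure of binding.

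Of 18 genes of eIF2α kinases, phosphatase subunits and GCN2 partners 5 rose and 2 fell (median 0.08, which was -0.06 with upper-quartile factors). These shares, 27.8% and 11.1%, were near those over all genes tested, 24.3% and 14.6%. Eif2ak4, which encodes GCN2, had 27.0, 33.7 and 29.0 CPM in starved libraries, against 18.6, 15.6 and 18.6 CPM in control libraries (0.76, adjusted p = 0.000736). Impact, an inhibitor that competes for the GCN2 activator GCN1, had 64.9, 76.0 and 63.1 CPM in starved libraries, against 28.9, 25.3 and 29.1 CPM in control libraries (1.29, adjusted p = 2.0e-06). The starved and control libraries of both genes did not overlap. Ppp1r15a and Ppp1r15b, which bring a phosphatase to eIF2α and so end its phosphorylation, rose by 1.05 and 0.74 on the log2 scale. Eif2s1, which encodes eIF2α, fell to 90.2, 107 and 97.6 CPM in starved libraries, against 149, 121 and 112 CPM in control libraries (-0.37), a call lost without control replicate 1 (adjusted p = 0.0542). The genes of the other 3 eIF2α kinases, Eif2ak1, Eif2ak2 and Eif2ak3, were not called.

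Of 21 cytosolic aminoacyl-tRNA synthetase genes, whose enzymes charge tRNAs, 12 rose and 2 fell (median 0.42), whereas 3 rose and 3 fell of the 17 mitochondrial ones. The alanyl enzyme gene Aars had 621, 758 and 720.4 CPM in starved libraries, against 347, 344 and 383 CPM in control libraries (0.97, adjusted p = 5.4e-06). The cytosolic set was not uniform: Nars, Cars and Sars, for asparagine, cysteine and serine, rose by 0.86, 0.86 and 0.75, while Dars and Farsa, for aspartate and phenylalanine, fell, at -0.54 and -0.26. The call of Farsa was lost without control replicate 2 (adjusted p = 0.0634). Dars had 98.0, 109 and 95.01 CPM in starved libraries, against 159, 145 and 135 CPM in control libraries, with no overlap of the groups. The same amino acids did not share a direction between compartments in the case of alanine, where the mitochondrial gene Aars2 fell (-0.3, adjusted p = 0.0395). Its call was lost without control replicate 2 (adjusted p = 0.0615) and without control replicate 3 (adjusted p = 0.112).

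Among 37 amino acid transporter genes 15 rose and 2 fell (median 0.24). Slc7a1, which imports arginine and lysine, had 136, 167 and 161 CPM in starved libraries, against 58.0, 43.9 and 66.3 CPM in control libraries (1.46, adjusted p = 9.2e-06). Slc38a2, a sodium-coupled importer of small neutral amino acids, rose by 1.22, and Slc38a7, a lysosomal transporter that exports glutamine and asparagine, by 1.14. The members that fell were Slc38a5 and Slc43a2. Slc38a5, an importer of glutamine, serine and glycine, had 41.8, 51.8 and 50.7 CPM in starved libraries, against 89.6, 103 and 99.9 CPM in control libraries (-1.02, adjusted p = 5.4e-06). Slc43a2, a facilitated carrier of large neutral amino acids, had 59.8, 62.9 and 65.5 CPM in starved libraries, against 99.7, 95.5 and 123 CPM in control libraries (-0.76). All 3 starved libraries of both genes lay below all 3 control libraries, and both falls held in both subsets. Counts of Slc43a2 may include reads of Gm45606, which overlaps it on the other strand.

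In serine synthesis and folate one-carbon metabolism 11 of 21 genes rose and 4 fell (median 0.36). Shmt2, the mitochondrial enzyme that converts serine to glycine, had 207, 237 and 230.2 CPM in starved libraries, against 94.9, 108 and 104 CPM in control libraries (1.14, adjusted p = 7.7e-07). Mat2a, which makes S-adenosylmethionine, rose by 1.27, and Slc25a32, the mitochondrial folate carrier, by 1.09. The falls included Ahcy, which clears S-adenosylhomocysteine (-0.5), Tyms, which makes thymidylate (-0.61), and Gcat, a mitochondrial enzyme of threonine breakdown. Gcat had 62.9, 75.7 and 83.6 CPM in starved libraries, against 141, 153 and 129.9 CPM in control libraries (-0.94). Of 14 genes of non-essential amino acid synthesis 5 rose and 5 fell. Gpt2, the mitochondrial alanine aminotransferase that ATF4 is known to induce, had 97.8, 121 and 109.8 CPM in starved libraries, against 33.0, 26.7 and 31.0 CPM in control libraries (1.86, adjusted p = 1.7e-07). Asns, asparagine synthetase and a classical ATF4 target, had 302, 377 and 336 CPM in starved libraries, against 209, 222 and 194 CPM in control libraries (0.70, adjusted p = 8.4e-05). Its groups did not overlap, but its change was smaller than that of Gpt2. Glul, glutamine synthetase, rose by 0.6, while Cbs of the transsulfuration path fell, at -0.54. In amino acid breakdown 4 of 26 genes rose and 7 fell. Aass, the first enzyme of lysine breakdown, had 3.88, 4.17 and 3.5 CPM in starved libraries, against 9.44, 7.25 and 7.66 CPM in control libraries (-1.08). The subunits of the enzyme complex that commits branched-chain amino acids to breakdown had opposite signs: Bckdha rose by 1.02 and Bckdhb fell, at -0.75, although counts of Bckdha may include reads of B3gnt8, which overlaps it on the other strand.

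Genes that report amino acids to mTORC1 were mostly lower, with a clear exception. Of 10 stress inhibitors and sensors of the pathway 7 fell and 1 rose (median -0.34). The exception was Sesn2, an ATF4 target that inhibits mTORC1 through GATOR2, with 145, 167 and 157 CPM in starved libraries, against 55.0, 57.8 and 70.3 CPM in control libraries (1.35, adjusted p = 1.3e-06). Its relative Sesn3, which FoxO factors induce, had 34.0, 38.4 and 37.9 CPM in starved libraries, against 74.1, 52.3 and 77.4 CPM in control libraries (-0.89, adjusted p = 0.000344). Sesn2 was thus higher in all starved libraries and Sesn3 lower in all of them. Ddit4, an inhibitor that acts through TSC2 and is induced by both hypoxia and ATF4, had 93.4, 94.5 and 98.0 CPM in starved libraries, against 223, 207 and 212 CPM in control libraries (-1.17). Of 29 genes of the mTOR complexes, GATOR, TSC and substrates 12 rose and 4 fell (median 0.24), and 4 of those rises held in both subsets. Rnf152, a lysosomal ubiquitin ligase that restrains RagA, rose by 2.48. Eif4ebp1, the translation repressor that mTORC1 inactivates, had 66.2, 69.7 and 74.3 CPM in starved libraries, against 28.7, 36.3 and 28.6 CPM in control libraries (1.17, adjusted p = 4.6e-06), and Deptor, an mTOR inhibitor, rose by 0.70.

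In the folliculin and Rag group, which links amino acids to TFEB and TFE3, 6 of 17 genes rose and 3 fell. Flcn, which acts on RagC and RagD, had 107, 127 and 103 CPM in starved libraries, against 35.9, 36.9 and 40.3 CPM in control libraries (1.57, adjusted p = 2.6e-07). Rragd, which encodes RagD and is a known TFEB target, had 87.8, 111 and 98.6 CPM in starved libraries, against 35.3, 27.9 and 36.8 CPM in control libraries (1.57, adjusted p = 1.8e-06). The levels of both in starved cells were well above those in control cells, with no overlap. Rragc and Rragb, for RagC and RagB, rose as well (0.61 and 0.53, the second not in both subsets), while Rraga, which encodes RagA, fell to 112, 136 and 123 CPM in starved libraries, against 173, 171 and 155 CPM in control libraries (-0.43). Fnip1, the folliculin partner gene, rose by 0.75, and Lamtor4, a subunit of the Ragulator that anchors Rag GTPases, fell (-0.69). Tfeb itself was not called, at 21.1, 22.8 and 22.7 CPM in starved libraries and 20.7, 29.1 and 24.8 CPM in control libraries (95% interval of the log2 fold change -0.43 to 0.1).

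Many autophagy and lysosome genes rose. Of 49 autophagy genes 26 rose and 5 fell (median 0.31), and of 56 genes of lysosomal enzymes and membrane proteins 33 rose and 1 fell (median 0.32), with 15 and 20 of the rises holding in both subsets. Gabarapl1, an autophagosome membrane protein gene, had 302, 341 and 319 CPM in starved libraries, against 132, 112 and 132 CPM in control libraries (1.36). Wipi1, which binds the forming autophagosome, rose by 1.35 and the receptor gene Sqstm1 by 0.73. The falls included Atg3, the enzyme that attaches lipid to LC3 (-0.43), Vmp1 (-0.52) and Bnip3, a receptor for mitochondria that is also a hypoxia target, with 83.3, 104 and 64.6 CPM in starved libraries, against 515, 475 and 311 CPM in control libraries (-2.37). Among lysosomal genes, Ctns, the cystine exporter, had 46.3, 49.1 and 48.4 CPM in starved libraries, against 20.6, 22.3 and 20.04 CPM in control libraries (1.19, adjusted p = 1.9e-06). Tpp1, a peptidase, rose by 1.12, the membrane protein gene Cd63 by 0.97 and the sulfatase gene Arsa by 0.96. The single lysosomal gene that fell was Fuca1, a fucosidase gene (-0.28), and its fall did not hold in both subsets. Of 18 genes of the proton pump that acidifies lysosomes 6 rose and 1 fell (median 0.11, but -0.04 with upper-quartile factors). None rose by more than 0.35 on the log2 scale (Atp6v1b2), and no rise held in both subsets.

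Atg14, a subunit of the lipid kinase complex that starts autophagosomes, had 27.0, 29.0 and 28.7 CPM in starved libraries, against 15.6, 13.6 and 15.8 CPM in control libraries (0.91, adjusted p = 2.3e-05). It is shown, after its values were seen, because it was the called gene of the folliculin, Rag and autophagy lists with the smallest adjusted p whose promoter held the lysosomal E-box searched as CACGTGAC on both strands (RefSeq, GRCm38.p6, chr14:47568385-47568684, minus strand), in capitals here at the transcription start itself.
Atg14: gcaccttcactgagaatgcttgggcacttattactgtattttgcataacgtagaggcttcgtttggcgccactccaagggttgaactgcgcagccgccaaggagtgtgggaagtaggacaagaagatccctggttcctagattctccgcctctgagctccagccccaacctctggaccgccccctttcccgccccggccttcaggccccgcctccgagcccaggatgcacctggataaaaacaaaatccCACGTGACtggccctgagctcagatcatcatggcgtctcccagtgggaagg
The E-box was found in 14 of 57 promoters of lysosomal genes (24.6%), 4 of 53 of autophagy genes (7.55%), 1 of 21 of the folliculin and Rag group (4.76%), 2 of 16 of proton pump genes (12.5%) and 2.25% of all promoters in the table. Among promoters of risen members it was in 11 of 34 of the lysosomal genes (32.4%), 2 of 29 of the autophagy genes (6.9%), 1 of 6 of the folliculin and Rag group (16.7%) and 0 of 7 of the proton pump genes.

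Insulin and growth factor signalling genes were higher in starved cells. Of 27 genes of the insulin and IGF receptors and PI3K-AKT signalling 18 rose and 3 fell (median 0.39), and 9 rises held in both subsets. The median exon length of these genes was 7185 bases, and 19 of them lay in the longest quartile. Irs2, the adaptor that carries insulin and IGF signals in β-cells, had 357, 435 and 456 CPM in starved libraries, against 144, 96.4 and 195 CPM in control libraries (1.52, adjusted p = 0.00013). Irs1, its relative, had 16.4, 19.8 and 17.3 CPM in starved libraries, against 5.53, 3.5 and 8.0 CPM in control libraries (1.65, adjusted p = 0.000378). The spread between control libraries was wide in both genes, yet no control library reached a starved library. Igf1r, the IGF receptor gene, rose by 0.94. Of 26 FoxO factors and FoxO targets 13 rose and 3 fell (median 0.32). N4bp2l1 had 54.1, 62.4 and 52.7 CPM in starved libraries, against 6.03, 6.27 and 6.36 CPM in control libraries, and its log2 fold change of 3.18 (SE 0.12, adjusted p = 1.2e-08) was the largest of the risen genes that the selection rule in the processing notes takes. The ubiquitin ligase gene Fbxo32 and the ligase adaptor gene Klhl24 rose by 1.91 and 2.02, and Foxo1 by 0.33 (adjusted p = 0.0221), a call that did not hold in both subsets and was lost without starved replicate 2 or 3 (adjusted p = 0.0812 and 0.14) and without control replicate 1 or 2 (0.0565 and 0.0525). The Ypel genes, small proteins of unclear function, rose in 3 of 5 cases, with Ypel4 at 21.8, 22.2 and 19.8 CPM in starved libraries, against 7.48, 9.19 and 7.42 CPM in control libraries (1.41). Another of these rises is uncertain, since a gene with more counts overlaps it on the other strand.

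Txnip, an α-arrestin that limits glucose uptake and binds thioredoxin, had 317, 363 and 324 CPM in starved libraries, against 69.8, 80.1 and 71.6 CPM in control libraries (2.18, SE 0.08, adjusted p = 1.2e-08). Every starved library was far above every control library, and the related arrestin gene Arrdc4 rose too (0.62). Another relative, Arrdc3, fell, with 21.4, 18.6 and 18.9 CPM in starved libraries, against 34.8, 28.8 and 28.9 CPM in control libraries (-0.65). Of the 10 genes of this group, with the glucose-sensing Mondo factors and thioredoxin, 4 rose and 3 fell. The falls included Mlx, the partner of both Mondo factors (-0.66), and Txn1, thioredoxin itself (-0.95), while thioredoxin reductase, Txnrd1, rose by 0.94. Counts of Mlx may include reads of Psmc3ip, which overlaps it on the other strand. The promoter of Txnip (RefSeq, GRCm38.p6, chr3:96557707-96558006, plus strand) is shown as the called FoxO-list gene with the smallest adjusted p that held the forkhead element, searched as GTAAACA on both strands and given in capitals.
Txnip: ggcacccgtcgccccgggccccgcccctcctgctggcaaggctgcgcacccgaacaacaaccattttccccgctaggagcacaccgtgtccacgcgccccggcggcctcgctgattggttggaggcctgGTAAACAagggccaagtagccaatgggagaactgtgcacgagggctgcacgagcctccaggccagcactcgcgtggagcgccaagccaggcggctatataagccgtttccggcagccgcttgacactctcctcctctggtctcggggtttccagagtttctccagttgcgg
The element was present in 3 of 23 promoters of the FoxO list (13%) and in 3.65% of all promoters.

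Most genes of glucose metabolism fell. Of 33 glycolytic enzymes and glucose and lactate transporters 20 fell and 3 rose (median -0.77), and 19 of the falls held in both subsets. Glucose transporters changed in opposite directions. Slc2a1, the general transporter, had 29.3, 27.2 and 27.6 CPM in starved libraries, against 137, 150.2 and 147 CPM in control libraries (-2.37, adjusted p = 1.6e-09). Slc2a2, the low-affinity transporter of mouse β-cells, was scarce, with 0.931, 1.23 and 1.54 CPM in starved libraries, against 10.3, 8.98 and 8.87 CPM in control libraries (-2.93, adjusted p = 3.1e-06). Slc2a3, a high-affinity transporter best known from neurons, was slightly higher, with 14.7, 15.2 and 14.2 CPM in starved libraries, against 10.7, 10.003 and 10.2 CPM in control libraries (0.51, adjusted p = 0.00101). Per length, mean levels in starved cells were 23.2, 5.88 and 0.617 TPM for Slc2a1, Slc2a3 and Slc2a2, and in control cells 109.7, 3.79 and 4.35 TPM. Slc2a1 was therefore the most abundant of the 3 in both groups.

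Down the pathway, Pgk1, phosphoglycerate kinase, had 336, 375 and 356 CPM in starved libraries, against 2085, 1916 and 1715 CPM in control libraries (-2.42). Ldha, lactate dehydrogenase A, had 204, 206 and 206 CPM in starved libraries, against 2806, 2901 and 2367 CPM in control libraries (-3.71, SE 0.09, adjusted p = 1.7e-10). Slc16a3, which exports lactate, had 60.0, 59.9 and 58.7 CPM in starved libraries, against 717, 749.7 and 686 CPM in control libraries (-3.59, SE 0.06, adjusted p = 1.6e-11). The 3 starved libraries were nearly alike in both lactate genes and differed widely in the markers of other cell types. The part of those transcripts in these falls was not tested. Gapdh, a common reference gene, fell as well, with 1826, 2048 and 2031 CPM in starved libraries, against 3424, 4019 and 3604 CPM in control libraries (-0.9). The other members that rose were Eno2, the neuronal enolase (0.6), and Pdk2, a kinase that restrains pyruvate entry into mitochondria (0.70). The pentose phosphate genes were mixed, with 5 of 8 lower and 2 higher. Taldo1, transaldolase, fell (-1.04), whereas H6pd, which runs the first steps of the path in the endoplasmic reticulum, had 158, 180.2 and 176 CPM in starved libraries, against 66.7, 57.4 and 75.8 CPM in control libraries (1.36, adjusted p = 1.5e-06).

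Of 33 HIF factors and non-glycolytic HIF targets 14 fell and 4 rose (median -0.22). Ak4, a mitochondrial adenylate kinase, had 1.71, 1.28 and 1.41 CPM in starved libraries, against 47.5, 39.0 and 49.2 CPM in control libraries (-4.93, adjusted p = 1.6e-09). P4ha1, a prolyl hydroxylase of collagen, had 112, 124 and 116 CPM in starved libraries, against 289.9, 267 and 283 CPM in control libraries (-1.25), and Vegfa, the angiogenic growth factor, 209, 207 and 185 CPM in starved libraries, against 307, 319 and 289 CPM in control libraries (-0.61). None of these groups overlapped. Hif1a itself was not called, with 95.3, 103 and 90.9 CPM in starved libraries and 86.7, 76.9 and 94.7 CPM in control libraries (adjusted p = 0.12, 95% interval of the log2 fold change -0.01 to 0.34), though it passed without control replicate 3 (0.24, adjusted p = 0.0278). The 4 HIF genes that rose, among them the partner gene Arnt (0.38) and Hif1an, which inhibits HIF (0.46), did not hold in both subsets. The Slc16a3 promoter (RefSeq, GRCm38.p6, chr11:120948817-120949116, plus strand) is shown because this gene had the smallest adjusted p of the called glycolytic and HIF genes with the hypoxia element core, searched as ACGTG on both strands, and it held 2 copies, in capitals, just before the start.
Slc16a3: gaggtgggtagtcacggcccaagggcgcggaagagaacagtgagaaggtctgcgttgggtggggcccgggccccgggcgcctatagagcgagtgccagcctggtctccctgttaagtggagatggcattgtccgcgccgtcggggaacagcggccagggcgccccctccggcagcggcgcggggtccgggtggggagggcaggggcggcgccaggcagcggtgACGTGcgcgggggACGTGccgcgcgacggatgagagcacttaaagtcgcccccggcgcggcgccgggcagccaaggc
This short core was found in 22 of 50 promoters of glycolytic genes (44%), in 18 of 36 of the HIF list (50%) and in 19.6% of all promoters.

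Respiratory chain genes of the nuclear and of the mitochondrial genome were called in opposite directions. Of 71 nuclear genes of the respiratory chain and ATP synthase 64 fell and none rose (median -0.63, all 19 alternatives below 0), and 55 falls held in both subsets. Atp5e, a small subunit of ATP synthase, had 78.2, 72.6 and 86.8 CPM in starved libraries, against 196, 281 and 175 CPM in control libraries (-1.46). The groups did not overlap. Of 13 protein genes of the mitochondrial genome 7 rose and none fell (median 0.77), 3 of them in both subsets. mt-Nd2, a complex I subunit, had 1313, 1370.5 and 1540.4 CPM in starved libraries, against 525, 699 and 663 CPM in control libraries (1.16, adjusted p = 0.000275), and mt-Cytb of complex III rose by 0.99. The nuclear copies of mitochondrial sequence leave some doubt about which reads were counted. Both sets are short: the nuclear set had a median exon length of 1550 bases, with 49 of 71 genes in the shortest quartile, and all 13 mitochondrial genes lie in that quartile. In the TCA cycle and its side reactions 16 of 26 genes fell and 1 rose (median -0.32). Idh1, the cytosolic isocitrate dehydrogenase, had 40.4, 40.1 and 40.9 CPM in starved libraries, against 85.4, 77.3 and 85.6 CPM in control libraries (-1.03), and Slc25a1, the citrate carrier that supplies lipid synthesis, fell (-1.08). Succinate dehydrogenase was divided, since Sdha rose (0.58) and Sdhb fell (-0.79).

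Nearly all sterol synthesis genes fell. Of 12 early genes, up to lanosterol, 11 fell (median -0.70), and of 10 late genes 9 fell and none rose (median -0.77). The single early gene that rose, Ggps1 (0.42), makes a side product for protein prenylation, overlaps a gene with more counts and did not hold in both subsets. Its call was lost without starved replicate 1 or 2 (adjusted p = 0.0738 and 0.211) and without control replicate 2 or 3 (0.106 and 0.0632). Fdps, which makes farnesyl diphosphate, had 40.3, 42.9 and 41.6 CPM in starved libraries, against 104, 139.8 and 97.3 CPM in control libraries (-1.45), and Msmo1, a later enzyme of the pathway, fell by 1.4 on the log2 scale. Abcg1, which exports sterol and is a target of the LXR receptors, rose, with 125, 142 and 133 CPM in starved libraries, against 73.7, 76.6 and 86.9 CPM in control libraries (0.76, adjusted p = 2.1e-05). Over the 15 genes of SREBP control, uptake and export 8 rose and 6 fell. The sterol element, searched as TCACNCCAC on both strands, was in 1 of 9 promoters of early genes (11.1%). It was in 0 of 11 promoters of late genes, 0 of 17 of the SREBP group and 1.24% of all promoters.

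Of 29 fatty acid synthesis genes 11 fell and 6 rose, and both desaturase genes named here fell. Scd2, a stearoyl-CoA desaturase, had 648, 754 and 702 CPM in starved libraries, against 2807, 2716 and 3153 CPM in control libraries (-2.04, adjusted p = 2.8e-08). Its relative Scd1 had 192, 74.3 and 131 CPM in starved libraries, against 375, 367 and 409 CPM in control libraries (-1.53), with the starved libraries in the same order as the markers of other cell types. Lpin1, a phosphatidate phosphatase, rose by 0.97. Of 28 fatty acid oxidation genes 12 rose and 4 fell (median 0.23). Cpt1a, the gate for fatty acids into mitochondria, had 193, 221 and 205 CPM in starved libraries, against 52.2, 48.6 and 65.3 CPM in control libraries (1.9, adjusted p = 1.8e-07). Ppargc1a, a coactivator of oxidative metabolism, had 30.2, 39.3 and 32.3 CPM in starved libraries, against 8.79, 6.11 and 8.48 CPM in control libraries (2.12, adjusted p = 1.4e-06). Both were far above control in each starved library. Hadh, a mitochondrial oxidation enzyme that also restrains insulin release, fell (-1.01).

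**Figure D5:**
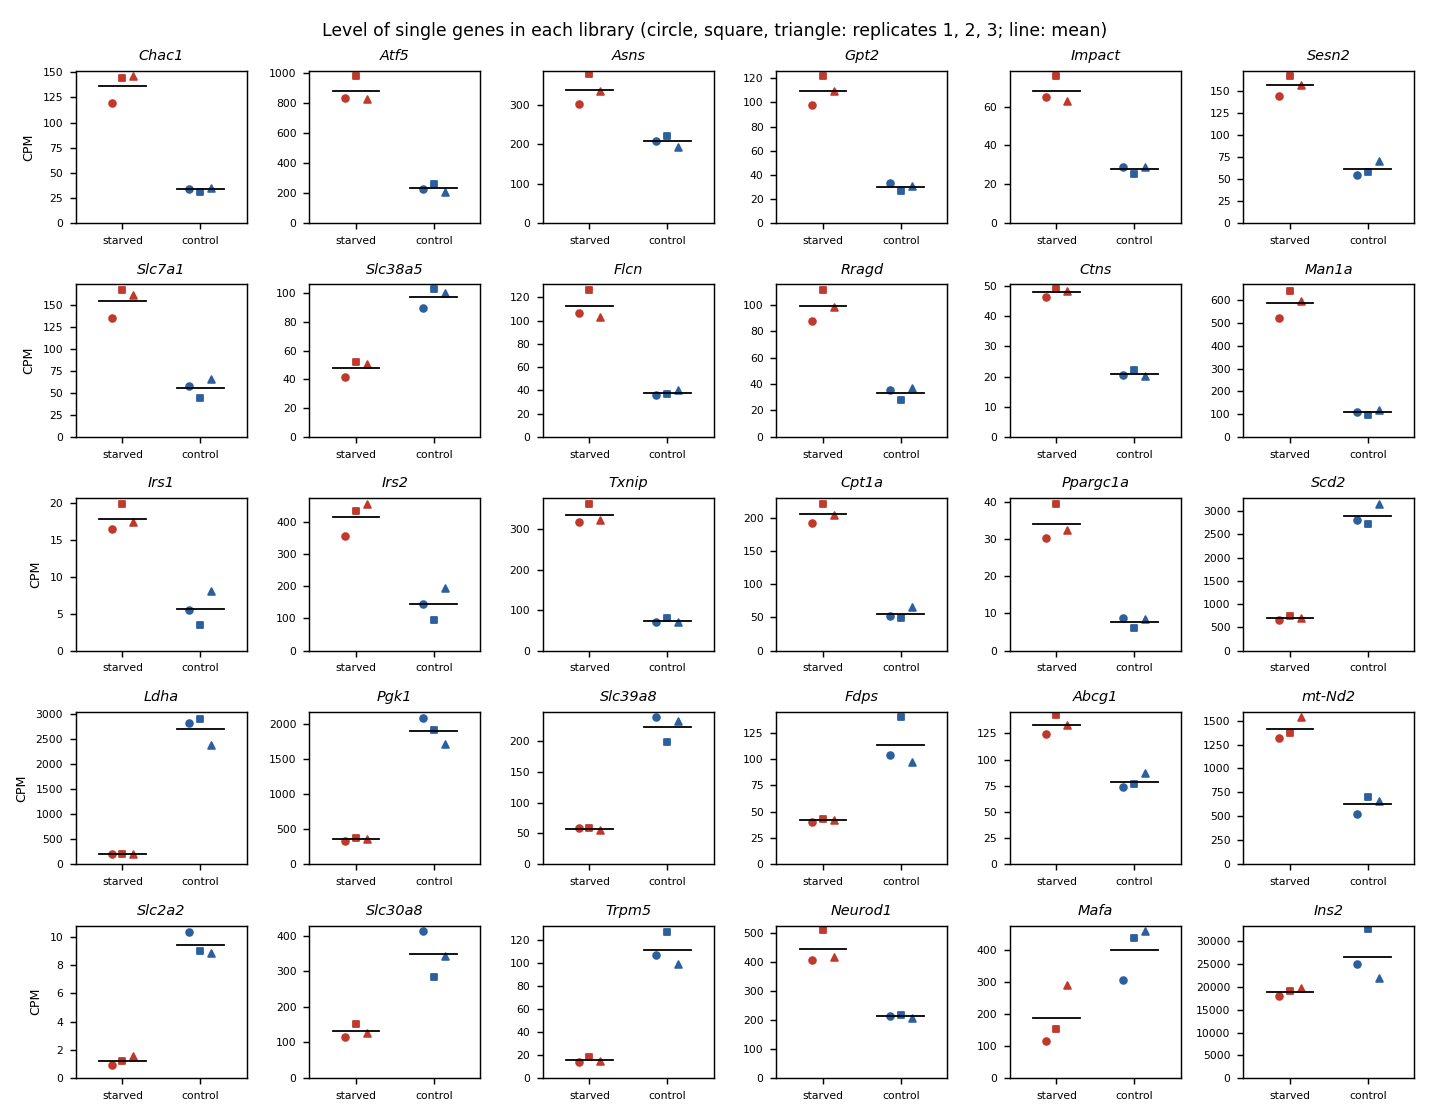
CPM of 30 genes in each starved (red) and control (blue) library, with symbols for replicates 1, 2 and 3 and lines at the group means; each axis starts at 0. In Mafa the groups come close, with starved replicate 3 at 292 CPM beside control replicate 1 at 306 CPM.

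Genes of β-cell identity and secretion did not move as a block. Of 25 identity transcription factors 11 rose and 5 fell. Pdx1, the homeobox factor named in the study's design text, had 365, 445 and 419.9 CPM in starved libraries, against 621, 606 and 655 CPM in control libraries (-0.61, adjusted p = 8.8e-05). Mafa, an activator of insulin transcription, had 115, 155 and 292 CPM in starved libraries, against 306, 437 and 459.5 CPM in control libraries (-1.1, adjusted p = 0.00967), and starved replicate 3 was well above the other starved libraries. Pax6 and the low-level Pax4 fell as well (-0.37 and -0.98). Neurod1, a factor that acts with PDX1 on the insulin promoter, went the other way, with 408, 510.0 and 416 CPM in starved libraries, against 212, 217 and 208 CPM in control libraries (1.07, adjusted p = 3.9e-06). Its starved libraries were all well above its control libraries, and so were those of Esrrg, a nuclear receptor of mature β-cells, which rose by 1.22.

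Of 20 prohormones and processing genes 3 rose and 6 fell. Ins2 had 18000.0, 19075 and 19875 CPM in starved libraries, against 25001, 32754 and 21926 CPM in control libraries (-0.48, adjusted p = 0.00857), a call that did not hold in both subsets. Ins1 fell by 0.76 on the log2 scale, and its split of reads from the near copy Ins2 is uncertain. Slc30a8, the zinc transporter of insulin granules, fell as well, with 116, 151 and 126 CPM in starved libraries, against 413, 284 and 344 CPM in control libraries (-1.41, adjusted p = 9.2e-06). The granins moved apart: Chgb had 9716, 11522 and 10818 CPM in starved libraries, against 5455, 6699.6 and 6341 CPM in control libraries (0.79), whereas Chga had 9203, 10891 and 10409 CPM in starved libraries, against 10766, 15326 and 12431 CPM in control libraries (-0.34, adjusted p = 0.0324), with 1 control library below a starved one and an adjusted p of 0.116 without control replicate 2. Among other peptides, Npy fell (-1.04).

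In glucose sensing, channels and receptors 12 of 29 genes rose and 8 fell (median 0.09, but -0.02 with upper-quartile factors). Besides Slc2a2, the cation channel gene Trpm5 fell by 2.82 on the log2 scale, although Tssc4, with more counts, overlaps it on the other strand. G6pc2, the islet glucose-6-phosphatase that opposes glucokinase, had 1490.2, 1838 and 1639 CPM in starved libraries, against 3093, 3068 and 2889 CPM in control libraries (-0.87, adjusted p = 8.1e-06). On the other side, Abcc8 had 1689, 2066 and 1997 CPM in starved libraries, against 1132, 1051 and 1418 CPM in control libraries (0.68, adjusted p = 0.000563), and the somatostatin receptor gene Sstr3 rose by 0.76. Of 27 genes of granule exocytosis 7 rose (25.9%) and 6 fell (22.2%), against 24.3% and 14.6% over all genes tested. Sytl4, the granule protein granuphilin, fell (-0.6).

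The genes of protein synthesis and turnover were lower in their structural parts. Cytosolic ribosomal protein genes fell in 67 of 79 cases (median -0.5), 33 of them in both subsets, and mitochondrial ones in 44 of 78, with 1 higher (Mrps2, 0.39) and a median of -0.33. By contrast, 21 of 55 ribosome biogenesis and RNA polymerase I genes rose and 11 fell (median 0.18, but 0.03 with upper-quartile factors). Of these calls, 9 rises and 6 falls held in both subsets. Polr1b, the second largest subunit of that polymerase, had 24.7, 28.9 and 27.8 CPM in starved libraries, against 15.2, 13.1 and 14.7 CPM in control libraries (0.92), while Ltv1, an assembly factor of the small subunit, fell (-0.47). Of 33 proteasome genes 28 fell (median -0.59), 27 of them in both subsets. Psmb3 had 64.4, 69.1 and 65.5 CPM in starved libraries, against 133, 164 and 114 CPM in control libraries (-1.05). The list's single rise was Nfe2l1, the transcription factor that induces proteasome genes, with 293, 320.4 and 301 CPM in starved libraries, against 205, 194 and 229 CPM in control libraries (0.54, adjusted p = 0.000172). Reads of ribosomal protein genes, like those of Gapdh and other abundant short genes, may be shared with processed pseudogenes, of which 66 of 401 tested fell and 14 rose, so single values there are uncertain. Median exon lengths were 1662 bases for the cytosolic ribosomal, 2068 for the mitochondrial ribosomal and 2607 for the proteasome genes. Of 45 translation factor genes 10 were higher (22.2%) and 13 lower (28.9%), against 24.3% and 14.6% over all genes tested. Among them Eif5a, which relieves stalled ribosomes, fell (-0.89), and Eif3a and Eef2 rose (0.61 and 0.46). The host genes of small nucleolar RNAs and other long non-coding RNAs were called in 3 of 22 cases: Snhg17 and Peg13 were higher (0.44 and 0.4) and Snhg8 lower (-0.61), none in both subsets. All 3 calls were lost without starved replicate 2, at adjusted p of 0.173 for Snhg17, 0.0937 for Peg13 and 0.0816 for Snhg8. Snhg17 was also lost without starved replicate 1 or 3 or control replicate 1 or 3 (adjusted p between 0.052 and 0.102), Peg13 without starved replicate 3 (0.0626) and Snhg8 without control replicate 2 (0.137).

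Of 45 endoplasmic reticulum genes 20 fell and 12 rose (median -0.17). The rises included sensors and degradation factors. Ern1, which encodes the stress sensor IRE1α, had 373, 455 and 415 CPM in starved libraries, against 131, 101 and 154 CPM in control libraries (1.69, adjusted p = 3.2e-06). Derl3, a channel protein of degradation from the endoplasmic reticulum, had 17.7, 21.4 and 18.5 CPM in starved libraries, against 5.1, 7.62 and 6.36 CPM in control libraries (1.6), and Herpud1 of the same path rose by 0.85. Crebrf, a regulator of the unfolded protein response, had 72.3, 91.9 and 68.7 CPM in starved libraries, against 28.8, 23.5 and 29.4 CPM in control libraries (1.51). Among the falls was Edem1, which helps to send misfolded glycoproteins to degradation (-0.36). Of 34 heat shock chaperone genes 13 fell and 3 rose. The rises were Hspa9, the mitochondrial HSP70 (0.82), Bag3 (0.41) and Hsf1 (0.39), the last not in both subsets, and the falls included Stip1, a co-chaperone (-0.56), and Cct7, a subunit of the chaperonin (-0.56).

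Growth-related genes were mixed with more falls than rises. Of 62 genes of DNA replication, cyclins and mitosis 25 fell and 7 rose. Ccne1, cyclin E1, had 40.2, 45.7 and 44.9 CPM in starved libraries, against 80.1, 84.0 and 78.1 CPM in control libraries (-0.89), Ccnd2 fell by 0.77 on the log2 scale, and Cdt1, a licensing factor, rose by 0.59. Cdkn1a, the inhibitor p21, had 303, 359 and 328 CPM in starved libraries, against 160.4, 186 and 162 CPM in control libraries (0.96, adjusted p = 4.9e-06). In the list of p53 pathway genes, which are mostly p53 targets, 12 of 28 rose while 6 fell. In nucleotide synthesis 10 of 28 genes fell and 7 rose, with Nme2 and Cmpk1 among the falls (-0.93 and -0.78) and Cad, the first enzymes of pyrimidine synthesis, higher by 0.55, a rise that did not hold in both subsets. Of 16 polyamine genes 7 fell and 1 rose. Srm, spermidine synthase, had 32.2, 37.8 and 49.5 CPM in starved libraries, against 74.6, 86.7 and 77.5 CPM in control libraries (-1.0), and the single rise was Sat1, which acetylates polyamines for export (0.70).

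Among antioxidant genes 10 of 33 rose and 11 fell. Gclc, the limiting enzyme of glutathione synthesis, had 85.4, 84.4 and 88.4 CPM in starved libraries, against 40.8, 41.5 and 43.1 CPM in control libraries (1.04, adjusted p = 3.4e-06), while Chac1, which breaks glutathione down, rose as given above. Of 18 iron genes 3 rose and 4 fell. Slc40a1, ferroportin and the only known iron exporter, had 405, 503 and 429 CPM in starved libraries, against 172, 133 and 149 CPM in control libraries (1.56, adjusted p = 9.0e-07). Slc39a8, an importer of zinc, manganese and iron, had 58.3, 59.5 and 55.6 CPM in starved libraries, against 238, 199 and 232 CPM in control libraries (-1.95, adjusted p = 1.2e-08). Every starved library lay above every control library in Slc40a1 and below every control library in Slc39a8, and iron transport itself was not measured. Meltf, a surface protein that binds iron, fell by 3.16 on the log2 scale.

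Of 35 immediate early genes, mostly transcription factors, 21 rose and 2 fell (median 0.4). Klf10, a TGF-β-induced zinc finger factor, rose by 1.19. Dusp6, a phosphatase that turns off ERK, rose by 1.2, Nr4a1 by 0.97 and Jun by 0.92. Myc, at 8.77, 10.3 and 8.63 CPM in starved libraries and 4.64, 6.54 and 5.3 CPM in control libraries (0.75, adjusted p = 0.00688), did not hold in both subsets. Of the falls, Egr4 (-1.38) held in both subsets and Zfp36 (-0.66) did not. Of 22 clock genes 7 rose, among them Per1 with 61.9, 68.7 and 64.0 CPM in starved libraries, against 27.5, 28.8 and 34.2 CPM in control libraries (1.1), and the 2 that fell were Cry1 (-0.49) and Dbp (-0.76), the last overlapped on the other strand by Sphk2, which had more counts. In the activin and TGF-β pathway 13 of 35 genes rose and 1 fell. The ligand subunit gene Inhba had 50.6, 55.0 and 54.3 CPM in starved libraries, against 8.06, 9.73 and 9.35 CPM in control libraries (2.56, adjusted p = 1.5e-08). Other members of this list that rose were Id2 and Id3 (0.97 and 0.79) and the corepressor gene Tgif1 (1.03).

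Of 28 sphingolipid genes 15 rose and 3 fell (median 0.26). Sphk1, which makes sphingosine 1-phosphate, rose by 2.47, and so did Sgpl1, which destroys it (0.74). Kdsr, the second enzyme of ceramide synthesis, rose by 1.13, and Degs1, the last, fell (-0.62). Of 22 genes of N-glycan trimming and branching 10 rose and 2 fell. Man1a, a Golgi mannosidase, had 524, 644 and 596 CPM in starved libraries, against 108, 96.3 and 120.2 CPM in control libraries (2.44, adjusted p = 1.5e-08), and its relative Man1c1 rose by 1.02. Man2a1, the next mannosidase of the pathway, fell (-0.75), but not in both subsets. Among 25 genes of DNA methylation and of histone demethylation and methylation (Polycomb) 9 rose and none fell. Kdm4a was among them (0.72), and 17 of the 25 genes lie in the longest quartile of exon length. In the interferon and antigen presentation list 3 of 31 genes rose and 6 fell. Its median of -0.62 differed widely by library, at -0.12, -1.25 and -0.71 in starved replicates 1, 2 and 3, in the order of the markers of other cell types. With the summed level of those markers as a covariate the median was -0.13. Rsad2 was the single fall of this list that held in both subsets (-1.08).

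Several of the largest changes were in genes outside these lists. Hs3st2, a heparan sulfate sulfotransferase, had 13.3, 16.2 and 16.8 CPM in starved libraries, against 3.38, 3.08 and 3.66 CPM in control libraries (2.19, adjusted p = 4.6e-06). Oprd1, the δ-opioid receptor gene, had 5.0, 6.2 and 5.56 CPM in starved libraries, against 0.960, 0.541 and 1.49 CPM in control libraries (2.47, adjusted p = 0.000167), beside Pdyn, an opioid peptide precursor gene that fell (-0.38). Klf11, a zinc finger factor known for binding the insulin promoter, had 48.1, 59.1 and 51.6 CPM in starved libraries, against 11.2, 10.9 and 12.5 CPM in control libraries (2.19, adjusted p = 1.1e-07). Abcc9, a regulatory subunit of potassium channels related to Abcc8, rose by 2.31. All starved libraries of these 4 risen genes were above all control libraries, which was a condition of their selection. On the side of the falls, Hapln1, a link protein of the matrix, had 1.55, 2.41 and 1.5 CPM in starved libraries, against 15.5, 9.84 and 12.6 CPM in control libraries (-2.8, adjusted p = 4.5e-06), Adam32, a disintegrin family gene, fell by 3.4 on the log2 scale, and Cox6a2, a muscle-type respiratory subunit gene, by 3.25. The small nuclear RNA gene Rn7sk also passed (3.15), but with 2.91, 36.3 and 2.74 CPM in starved libraries, against 0.960, 1.41 and 2.36 CPM in control libraries, its call rests on starved replicate 2, without which the log2 fold change was 0.81 (adjusted p = 0.288). It was also lost without control replicate 1 (0.0718) or control replicate 2 (0.0589).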

How the data were processed

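Counts per gene were deposited by the authors as raw whole numbers, with exon coordinates in the file headers. Subread 2.0.1, limma 3.46.0 and the build GRCm38.p6 are named in the submitters' processing notes, which give no role or order for them, and the strand setting is not given in the sources used here. TPM values deposited by the authors, scaled for length and library size, gave gene names and levels per length. Every per-sample column used here matched a labelled sample. The list members, gene lists and tests were chosen with earlier results of these data known. Genes were kept with filterByExpr (minimum count 10, minimum total 15), scaled with TMM and fitted over all 12 libraries of 4 groups with edgeR 4.0.16 in R 4.3.3, using the quasi-likelihood test of starved against control, 8 residual degrees of freedom and Benjamini-Hochberg adjustment over all 16844 genes. This test was first tried on simulated data with 200 of 15966 genes set to change. It called 14.7%, 84.4% and 98.5% of those changed by 0.5, 1 and 2 on the log2 scale, with 3 false calls. The spread between simulated libraries was set in advance, so these shares need not hold for the real libraries. Alternatives were other scalings and filters, DESeq2 1.42.0, limma 3.58.1 on log2(TPM + pseudocount), a fit of the 6 libraries alone, the marker sum as a covariate, single libraries left out and the replicate block. The genes named were a set of amino acid, β-cell and HIF genes, then in each direction the 10 called genes that changed most among those with a group mean of at least 5 CPM and no overlap of the groups, the most abundant called genes, and in each list the 4 called members with the smallest adjusted p and up to 3 called members of the other direction, some of which are left out. Atg14, Abcc8, Arrdc4 and Rragb fall outside this rule and were chosen after their values were seen. Exon overlaps came from the deposited coordinates, and promoters from RefSeq. Counts carry no molecular identifiers, so the depth bounds counting error only. Some genes are not reported here.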

Additional observations from a re-analysis of the deposited data

How the results depend on the processing

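None of the genes given with values in the report changed sign under any of the 19 alternatives, and 168 of 194 kept the side of the threshold they had in all those that tested them. Of 192 called genes named, 19 lost their call with starved replicate 1 alone, 12 with the 6 libraries alone and 10 with limma on log2(TPM + 1) without a minimum. Mafa was among the second of these (adjusted p = 0.0504 in the 6 libraries). The number of called genes was 4122 with 2389 higher in the 6 libraries alone, and 3252 with 1614 higher and 1638 lower for starved replicate 1 alone, a fit with fewer samples. Calls of at least 2-fold numbered 485 where a mean of at least 5 CPM was asked, a filter that tests fewer genes, and 1971 without starved replicate 1, the cause of which was not tested. Leaving out each library in turn gave 5466 to 7189 called genes, 2813 to 4173 higher, 2083 to 3639 lower and 727 to 1971 of at least 2-fold. The marker sum as a covariate left 5362 called genes (56.1% higher) and moved the interferon list's median to -0.13. DESeq2 called 6723 genes (54.6% higher), RLE factors gave 54.2% higher, the filter at 5 CPM 52.5%, starved replicate 1 alone 49.6%, without starved replicate 2 51.5%, and limma on log2(TPM + 0.1) 73.7% with a median over all genes of 0.15. With the replicate number as a block, 6512 genes were called, 3919 higher and 2593 lower. The correlations of same-numbered starved and control libraries were -0.233, -0.185 and 0.036, so the numbers were not read as pairing. Some list medians changed sign, with the cause not tested: translation factors were at 0.0065 and heat shock chaperones at 0.022 in the 3 limma fits to TPM, the long non-coding list at 0.038 with starved replicate 1 alone and at 0.20 and 0.24 in limma fits, clock genes at -0.0088 with upper-quartile factors, and markers of other islet cells between -0.38 and 0.026 when single libraries were left out, the last without control replicate 2. The starved and control groups hold 3 libraries each, and fold changes under 1.5 rest on a median SE of 0.11 among called genes.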
